A study of Homo sapiens with 3 samples.

Results

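The levels of 10 immediate early genes of the AP-1 and EGR families were compared in the breast cancer cell line HCC1937. They were FOS, FOSB, FOSL1, FOSL2, JUN, JUNB, JUND and ATF3, whose proteins pair to form AP-1, and the zinc finger genes EGR1 and EGR3. The genes were chosen by name, as every probe that the platform annotation gives to a listed symbol, which made 13 probes of the 47315 on the array and 10 of 20043 gene symbols.

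HCC1937 is an established human breast cancer line, classed as basal by the labels, and every group was grown in DMEM holding 3 mM glucose plus 0.5 mM glutamine. Total RNA of 3 samples was hybridised to Illumina bead arrays. The groups were untreated cells, cells under 200 nM dexamethasone, a synthetic glucocorticoid, for 16 h, and cells given 200 nM dexamethasone with 1 µM retinoic acid for 16 h. An array with retinoic acid alone was not analysed here. With 1 array in each group there is no replicate check and no test, and the number of arrays is what limits precision.

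The arrays carried 16635 to 17091 detected probes (detection p-value under 0.01) with a median of 21 or 22 beads per probe. By their identifiers, the arrays of untreated and combination cells came from slide 1 and that of dexamethasone from slide 2. Wherever dexamethasone alone is compared, slide and treatment therefore cannot be told apart. Of the 4 basal markers with a named probe, EGFR (intensities 147 to 233) and VIM (5405 to 7907) were detected on all 3 arrays, KRT5 after dexamethasone alone and KRT14 on none. All 6 luminal markers, among them ESR1 (untreated intensity 1028), GATA3 (1201) and FOXA1 (5118), were detected on all 3 arrays. On the untreated array EGFR lay just above the lowest detected intensity (146), so VIM was the only bright basal marker there. The markers of the untreated cells thus went more with a luminal than with the basal label, and no check of the line's identity was made. PTPRC, CD3E, PECAM1 and VWF, markers of leukocytes and endothelium, were undetected on all 3. The monocyte marker CD14 was detected on the combination array alone (intensity 269), and the fibroblast gene COL1A1 was dim on the other arrays (187 and 209).

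AP-1 is a dimer of leucine zipper proteins that binds DNA and switches genes on or off. FOS proteins need a JUN partner, JUN proteins can also pair with each other, and ATF3 often represses. Most of these genes are immediate early genes, which growth factors, hormones or stress induce within minutes without new protein synthesis. In epithelial cells the glucocorticoid receptor can bind AP-1 and restrain it, and retinoic acid receptors are known for a similar antagonism. EGR1 and EGR3 are zinc finger factors that bind GC-rich sites, and the corepressors NAB1 and NAB2 hold them in check.

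After dexamethasone alone, 6 of the 10 genes were at least 2-fold higher than on the untreated array, 1 was at least 2-fold lower and 3 lay within 2-fold. The higher genes were FOS, FOSB, ATF3, JUN, JUNB and EGR1, and the lower gene was EGR3. Of all 10852 measured genes, 10.3% passed the same size rule, 5.73% higher and 4.57% lower. The median log2 difference over the 10 genes was 1.41, and over all measured genes it was 0. With retinoic acid added to dexamethasone, FOS alone was at least 2-fold higher than on the untreated array and EGR3 alone at least 2-fold lower. Among 10705 measured genes 11.3% passed the rule there, 5.84% higher and 5.43% lower, and the medians were 0.42 for the 10 genes and -0.01 for all. Between the 2 treated arrays, 0 of the 10 genes were at least 2-fold higher with retinoic acid and 4 were at least 2-fold lower: ATF3, FOSB, EGR1 and JUN. The rule was passed by 6.57% of 10734 measured genes, with 2.99% higher and 3.58% lower, and the medians were -0.75 and -0.01. The comparisons with the untreated array share that array, and the comparisons with the dexamethasone array share that one.

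**Figure D1:**
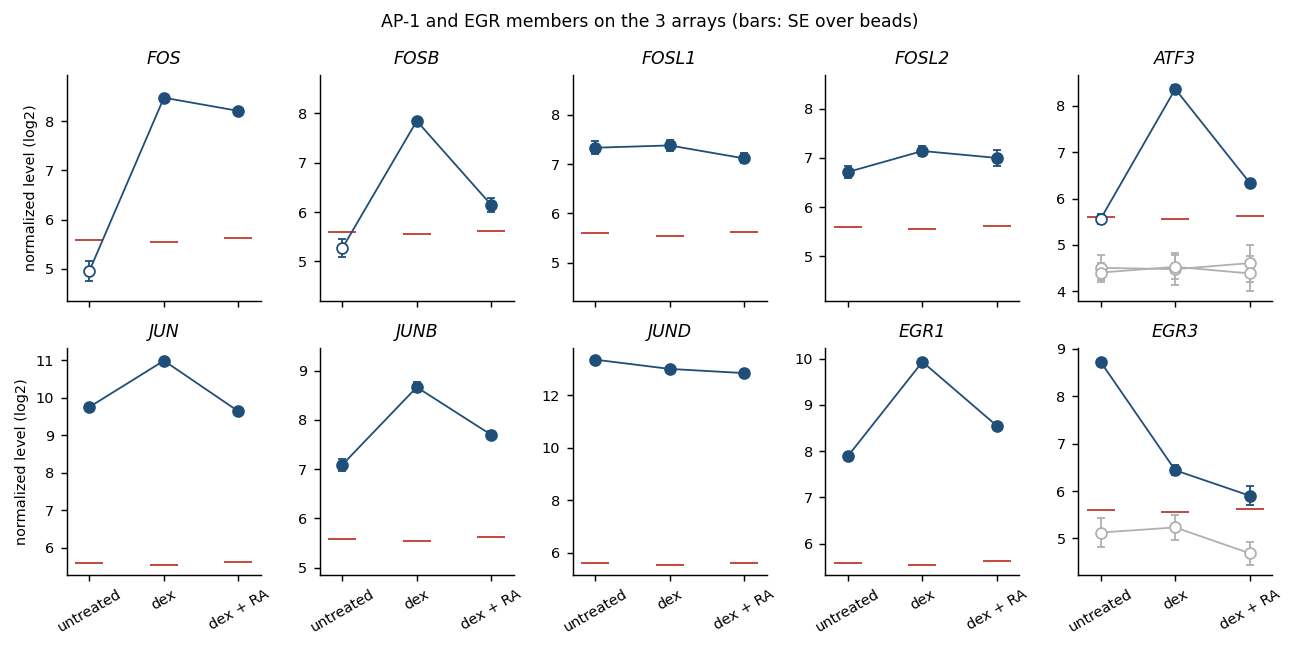
Normalized level (log2, vertical axis) of each gene on the untreated, dexamethasone (dex) and dexamethasone with retinoic acid (dex + RA) arrays; filled points were detected, open points were not, bars are the standard error over beads and are often smaller than the point, red marks give the lowest detected value of each array, and grey lines are the dimmer probes of ATF3 and EGR3. FOS stayed near its dexamethasone level on the combination array, FOSB, ATF3, JUN, JUNB and EGR1 peaked on the dexamethasone array, and EGR3 was highest on the untreated array.

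The values below are normalized log2 levels unless an intensity is named, and each difference is followed by the standard error (SE) over beads, a measure of bead-to-bead spread inside an array and of nothing else. A fold marked "at least" belongs to a gene undetected on 1 of the arrays compared, and takes that array's dimmest detected signal as its base. It is a bound under the processing used here only, and some alternatives gave lower folds for FOS, FOSB and ATF3. The bead SE beside such a bound belongs to the difference between the arrays' own values, before that base was put in place. The bead SE of the 10 genes ranged from 0.05 to 0.23 in these comparisons.

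FOS, the classical immediate early partner of JUN, had unnormalized intensities of 131 untreated, 472 with dexamethasone and 513 with the combination. The untreated value was not detected, with a detection value of 0.168 against the 0.01 required. Normalized levels were 4.96, 8.48 and 8.21, so both treated arrays were high and lay close together. FOS was at least 7.37-fold higher after dexamethasone (log2 difference 2.88, bead SE 0.21) and at least 6.12-fold higher with the combination (2.61, bead SE 0.21). Only 0.534% of measured genes were as far up in the comparison with dexamethasone, and 0.654% with the combination. With the deposited normalized values FOS was at least 2.64-fold higher after dexamethasone (1.40) and at least 2.31-fold higher with the combination (1.21). Without the bound these deposited differences were 1.57 and 1.38. The treated arrays differed by -0.27 (bead SE 0.08). The untreated and combination arrays shared a slide, so for FOS a difference was seen within a slide.

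FOSB, a FOS relative with a transactivating long form and a truncated form, was also undetected on the untreated array, with intensities of 139, 352 and 213 in the order untreated, dexamethasone and combination. Normalized levels were 5.26, 7.85 and 6.14. The dexamethasone array stood alone: FOSB was at least 4.77-fold higher there than untreated (2.25, bead SE 0.19), while the combination differed from untreated by 0.55 (bead SE 0.23, a bound). The combination lay 3.26-fold below dexamethasone (-1.71, bead SE 0.15). With the deposited normalized values FOSB differed by at least 0.97 after dexamethasone, and by 1.06 without the bound. Between the treated arrays the deposited difference was -0.81, within 2-fold.

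The FOS-related genes FOSL1 and FOSL2, which encode FRA-1 and FRA-2 and lack the strong activation domain of FOS, were detected on all 3 arrays. FOSL1, often abundant in basal breast cancer cells, had levels of 7.33, 7.38 and 7.12, and FOSL2 had intensities of 184, 264 and 289, with levels of 6.71 untreated and 7.14 after dexamethasone. Neither gene passed 2-fold in any comparison. Dexamethasone minus untreated was 0.05 (bead SE 0.17) for FOSL1 and 0.43 (bead SE 0.15) for FOSL2. FOSL1 differed by -0.22 and -0.26 in the comparisons of the combination with untreated and with dexamethasone, and FOSL2 by 0.29 and -0.14. All FOSL1 differences and the FOSL2 differences of the combination lay within 2 bead SE of 0.

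ATF3, a stress-induced leucine zipper protein that pairs with JUN proteins, had 3 probes. The brightest had intensities of 146, 447 and 226 in the same order, with the untreated value just outside detection (0.0117). Its levels were 5.56, 8.36 and 6.34, high on the dexamethasone array alone. ATF3 was at least 6.81-fold higher after dexamethasone (2.77, bead SE 0.14), and 0.627% of measured genes were as far up. The combination was 4.07-fold lower than dexamethasone (-2.03, bead SE 0.13) and differed from untreated by 0.74 (bead SE 0.14, a bound). With the deposited normalized values ATF3 differed by at least 1.32 after dexamethasone, a bound, and by -1.09 between the treated arrays. The other ATF3 probes were undetected on all 3 arrays, with intensities of 107 to 143, and give no direction.

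Among the JUN genes, JUN and JUNB were higher on the dexamethasone array and JUND was not. JUN, the strongest activator of the 3, had intensities of 720, 2080 and 1174, all detected, and levels of 9.75, 10.99 and 9.63. It was 2.36-fold higher after dexamethasone (1.24, bead SE 0.08) and 2.55-fold lower with the combination than with dexamethasone (-1.35, bead SE 0.09). The untreated and combination levels differed by -0.12 (bead SE 0.09), so only the array on slide 2 stood apart. With scaling to the 75th percentile in place of quantile normalization, this last difference was 0.01.

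JUNB, a weaker activator that can oppose JUN, had intensities of 205, 519 and 396 and levels of 7.09, 8.67 and 7.70. It was 2.98-fold higher after dexamethasone (1.58, bead SE 0.16). The combination lay between the other arrays, 0.61 above untreated (bead SE 0.15) and 0.97 below dexamethasone (difference -0.97, bead SE 0.13), both within 2-fold. With the deposited normalized values the difference after dexamethasone was 0.99, just inside 2-fold. JUND, which is made at a steady level in most cells, was bright on every array, with intensities of 8181, 8387 and 9216. Its normalized levels were 13.35, 13.00 and 12.84, in the opposite order. The median intensities of the whole arrays before normalization were 132, 149 and 159. JUND differed by -0.35 (bead SE 0.07) after dexamethasone, by -0.51 (bead SE 0.05) with the combination and by -0.16 (bead SE 0.06) between the treated arrays, all within 2-fold.

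The EGR genes went opposite ways after dexamethasone. EGR1, induced by growth factor signalling through ERK kinases, had intensities of 275, 1063 and 617, all detected, and levels of 7.89, 9.93 and 8.55. It was 4.11-fold higher after dexamethasone (2.04, bead SE 0.10), and 1.32% of measured genes were as far up. The combination was 2.61-fold lower than dexamethasone (-1.39, bead SE 0.10) and differed from untreated by 0.65 (bead SE 0.10), within 2-fold.

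EGR3, which EGR1 and estrogen can induce in other settings, was high on the untreated array and low on both treated ones. Its brightest probe had intensities of 405, 209 and 199, all detected, and levels of 8.72, 6.44 and 5.90. EGR3 was 4.87-fold lower after dexamethasone (-2.28, bead SE 0.13) and 7.07-fold lower with the combination (-2.82, bead SE 0.21). Only 0.221% and 0.121% of measured genes were as far down in these comparisons. The treated arrays differed by -0.54 (bead SE 0.23). The difference between untreated and combination was within slide 1, as it was for FOS. Of 6 luminal markers, 5 were below 0 in each comparison with the untreated array. At least 2-fold lower were 4 after dexamethasone (median -1.39) and 3 with the combination (median -0.94), against 4.57% and 5.43% of all measured genes. Between the treated arrays 0 passed 2-fold and 4 were above 0 (median 0.33), whereas EGR3 was below 0. ESR1, the estrogen receptor, had intensities of 1028, 491 and 942, and its target gene TFF1 17170.5, 6694 and 6718. All 6 were detected on every array, and their part in the result was not tested. The dimmer EGR3 probe was undetected on all 3 arrays, with intensities of 136 to 158.

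**Figure D2:**
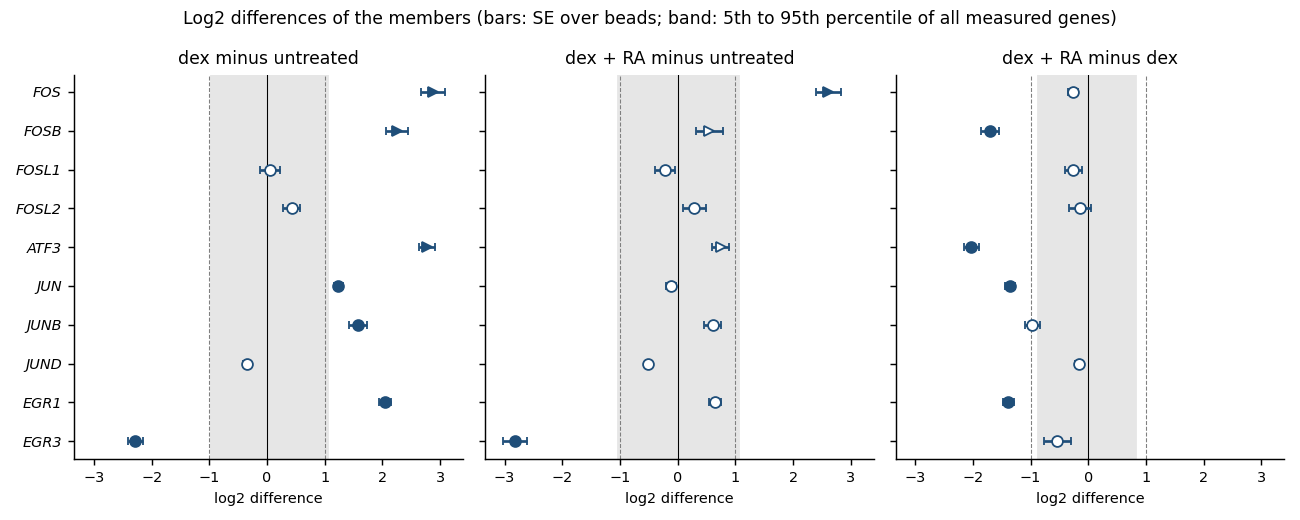
Log2 difference (horizontal axis) of each gene in the 3 comparisons, with bars for the standard error over beads, dashed lines at 2-fold, filled symbols past 2-fold and triangles for bounds; the grey band spans the 5th to the 95th percentile of all measured genes. The 6 higher genes after dexamethasone lay right of the band, FOS alone did so with the combination, and EGR3 lay left of it in both comparisons with the untreated array.

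The 5 genes FOSB, ATF3, JUN, JUNB and EGR1 thus shared a pattern, highest on the dexamethasone array, whereas FOS was high on both treated arrays and EGR3 was low on both. All 10 genes were below 0 in the comparison of the combination with dexamethasone (range -2.03 to -0.14), where 51.0% of all measured genes were below 0. Which of these differences belongs to retinoic acid and which to the slide cannot be told apart. The difference in pattern between FOS and the 5 genes was not tested, since each group held 1 array.

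Promoter sequences are shown for the genes that were higher after dexamethasone and whose 250 bases before the start hold a searched motif, so that the letters can be read beside the values. They come from RefSeq (GRCh38.p14), whose promoter table held 8 of the 10 genes, with 2 starts for ATF3, and positions are counted back from the annotated start. EGR1 lies on the plus strand at chr5:138465229-138465478, and capitals mark CArG boxes, the core of the serum response element through which ERK signalling acts, at -105 to -96 and -83 to -74.
EGR1: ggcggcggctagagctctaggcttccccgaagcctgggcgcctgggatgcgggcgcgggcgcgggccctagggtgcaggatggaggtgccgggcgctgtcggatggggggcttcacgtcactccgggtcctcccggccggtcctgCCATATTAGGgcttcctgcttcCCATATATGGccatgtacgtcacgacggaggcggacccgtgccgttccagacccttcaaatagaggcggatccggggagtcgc
JUN lies on the minus strand at chr1:58784048-58784297, and capitals mark TGACATCA, an ATF and AP-1 site variant, at -67 to -60.
JUN: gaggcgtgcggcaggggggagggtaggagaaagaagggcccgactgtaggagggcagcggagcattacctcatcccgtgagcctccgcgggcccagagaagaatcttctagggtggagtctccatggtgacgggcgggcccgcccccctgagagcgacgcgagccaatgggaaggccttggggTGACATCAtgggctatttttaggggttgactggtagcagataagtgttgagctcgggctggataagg
The first ATF3 start, on the plus strand at chr1:212565157-212565406, has the same 8 letters at -123 to -116.
ATF3: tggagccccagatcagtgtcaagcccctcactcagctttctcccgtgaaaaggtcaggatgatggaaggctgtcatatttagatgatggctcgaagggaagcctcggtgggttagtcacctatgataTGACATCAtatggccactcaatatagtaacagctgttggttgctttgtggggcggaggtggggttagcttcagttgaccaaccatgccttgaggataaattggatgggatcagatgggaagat
FOS (chr14:75278578-75278827), FOSB (chr19:45467746-45467995) and JUNB (chr19:12791236-12791485) lie on plus strands, and capitals mark their TATA boxes at -33 to -28, -30 to -25 and -31 to -26.
FOS: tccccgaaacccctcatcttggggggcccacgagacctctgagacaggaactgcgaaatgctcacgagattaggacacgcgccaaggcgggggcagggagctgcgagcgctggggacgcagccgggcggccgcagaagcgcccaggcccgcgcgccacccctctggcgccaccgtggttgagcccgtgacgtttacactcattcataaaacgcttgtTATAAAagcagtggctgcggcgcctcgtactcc
FOSB: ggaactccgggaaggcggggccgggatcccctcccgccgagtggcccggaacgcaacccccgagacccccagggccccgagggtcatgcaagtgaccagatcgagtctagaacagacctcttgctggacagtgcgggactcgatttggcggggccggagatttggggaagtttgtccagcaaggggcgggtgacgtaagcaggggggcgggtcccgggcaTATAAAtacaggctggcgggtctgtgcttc
JUNB: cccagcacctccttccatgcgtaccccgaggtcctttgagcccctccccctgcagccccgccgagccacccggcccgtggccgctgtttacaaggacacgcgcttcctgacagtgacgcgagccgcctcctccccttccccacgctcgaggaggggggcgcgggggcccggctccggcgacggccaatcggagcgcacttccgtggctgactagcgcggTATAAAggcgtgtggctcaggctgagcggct

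Each motif was searched on both strands, save the TATA box (TATAAA, gene strand only), in the 35116 promoters of the table. CArG boxes were in 1.16% of them, and EGR1 was the 1 gene of the 8 that held any. The letters TGACATCA were in 2.37% of all promoters and in those of JUN and ATF3. TGACG, the core of the cyclic AMP response element and part of some of the longer sites, was in 21.2% of all promoters and in 7 of the 8 genes, all but ATF3. The full element TGACGTCA was in 1.65% and, of these genes, in JUND alone. TATAAA was in 6.8% of all promoters and in those of FOS, FOSB, JUNB and the other ATF3 start. The AP-1 site TGANTCA (6.57% of all promoters), the EGR sites GCGTGGGCG and GCGGGGGCG (5.37%) and the palindromic glucocorticoid response element with up to 2 mismatches (1.18%) were in 0 of the 9 member promoters. The searches for TGACATCA, TGACG and TATAAA were added after these promoters had been read. A match is a description of these letters, and no match says only that they are not in this window.

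Of 34 measured genes on a list of other immediate early genes, 12 were at least 2-fold higher after dexamethasone and 1 lower (median 0.78), against the background of 5.73% and 4.57% given above. The largest were SGK1, a kinase and classical glucocorticoid target (43.0-fold), the MAP kinase phosphatase gene DUSP1 (9.43-fold), the transcription factor KLF4 (7.17-fold) and the kinase SIK1 (6.42-fold). IER3, an apoptosis regulator, was the lower one, with intensities of 6066, 1874 and 2999 in the order untreated, dexamethasone and combination. It was 4.34-fold lower after dexamethasone and 3.54-fold lower with the combination. With the combination, 10 of 34 were higher and 4 lower than untreated (median 0.39), against 5.84% and 5.43% of all measured genes. The higher ones were led by SGK1 (33.7-fold), SIK1 (6.30-fold), the stress sensor gene GADD45B (5.47-fold) and KLF4 (4.81-fold). Between the treated arrays, 0 were higher with retinoic acid and 5 were lower (median -0.24), against 2.99% and 3.58% of all measured genes.

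Those 5 were the small GTPase RHOB (6.72-fold lower), the phosphatase of ERK kinases DUSP5 (3.00-fold), the mRNA decay factor ZFP36L2 (2.75-fold), the growth arrest gene GADD45A (2.55-fold) and DUSP1 (2.17-fold). DUSP5 had intensities of 458, 1728 and 856, and was 3.36-fold higher after dexamethasone, an order like that of EGR1. DUSP1, at 479, 4840 and 3094, stayed 4.34-fold above untreated with the combination. RHOB, at 1292, 3204 and 743, was 3.46-fold below untreated with the combination.

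Of 11 other AP-1 partners with a named probe, 6 or 7 were measured in each comparison. BATF, a leucine zipper protein that pairs with JUN and is best known from lymphocytes, had intensities of 217, 980 and 1303 and was 5.67-fold higher after dexamethasone (2.50, bead SE 0.12) and 5.79-fold higher with the combination (2.53, bead SE 0.10). The treated arrays differed by 0.03, so BATF, like FOS, was high on both. JDP2, a repressor that pairs with JUN, was 2.31-fold lower with the combination than with dexamethasone (-1.21, bead SE 0.11) and within 2-fold otherwise. MAFF was 2.34-fold higher with the combination than with dexamethasone by its brightest probe (1.22, bead SE 0.19), but its other detected probe differed by -0.16. After dexamethasone the same probes differed by -0.84 and 1.54, so MAFF had no settled direction. MAFG, ATF2, CREBL2 and MAF, where measured, lay within 2-fold in all 3 comparisons.

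The EGR corepressor gene NAB2, itself induced by EGR proteins, had intensities of 415, 457 and 358. It was 2.42-fold lower with the combination than untreated (-1.28, bead SE 0.12) and differed by -0.36 (bead SE 0.10) after dexamethasone, where EGR1 was higher. NAB1 differed by 0.18, 0.43 and 0.25 in the 3 comparisons, and EGR4 was undetected on all 3 arrays.

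Kinases and ternary complex factors upstream of these genes lay within 2-fold after dexamethasone in 16 of 16 measured cases (median -0.15). Only 10.3% of all measured genes passed 2-fold there, so most genes of any kind lay within it. With the combination 1 was higher than untreated, MRTFB, a coactivator of SRF, at intensities of 205, 285 and 482. The ERK-activated kinase RPS6KA1 was the 1 lower (2.11-fold). The shares of all measured genes there were 5.84% higher and 5.43% lower. SRF, which binds CArG boxes, differed by -0.09, -0.60 and -0.51 in the order of the comparisons.

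Genes known for AP-1 sites in their promoters were higher in 5 of 17 measured cases after dexamethasone and lower in 0 (median 0.32). They were the stress keratin KRT16 (at least 95.9-fold), the heme oxygenase gene HMOX1 (5.83-fold), the chemokine gene CXCL8 (3.86-fold), the metallothionein gene MT2A (3.23-fold) and the integrin gene ITGB4 (2.62-fold). With the combination 2 of 15 were higher than untreated, CXCL8 (6.11-fold) and MT2A (4.08-fold). The other CXCL8 probe differed by 0.71 after dexamethasone, within 2-fold, and by 1.43 with the combination. KRT16 (at least 94.0-fold), ITGB4 (at least 4.86-fold) and HMOX1 (3.94-fold) were lower with the combination than with dexamethasone. Of the 26 genes of the list with a named probe, 9 were undetected on both arrays after dexamethasone and were not compared. After dexamethasone 5.73% of all measured genes were higher and 4.57% lower. With the combination 5.84% were higher, and between the treated arrays 3.58% were lower.

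Of 8 measured genes linked to EGR1, 2 were higher after dexamethasone, the matrix protein gene THBS1 (2.43-fold) and the cell cycle inhibitor CDKN1A (2.23-fold), and 0 were lower. Both were lower with the combination than with dexamethasone, by 2.48-fold and 2.03-fold. PTGES, a prostaglandin E synthase, went the other way, 3.59-fold higher with the combination than with dexamethasone and 4.96-fold higher than untreated. The heparanase gene HPSE was at least 2.16-fold higher with the combination than untreated by its brightest probe, and its other probe differed by -0.01. NAB2, described above, was the 1 lower gene there, where 5.84% of all measured genes were higher and 5.43% lower. Of all measured genes, 5.73% were higher and 4.57% lower after dexamethasone, and 3.58% were lower between the treated arrays.

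Several heat shock and protein stress genes were also highest on the dexamethasone array. Of 17 measured, 6 were at least 2-fold higher there than untreated and 0 lower, against 5.73% and 4.57% of all measured genes. With the combination 0 of 17 were higher than untreated and 1, the chaperone gene HSPA1A, was lower (2.66-fold), against 5.84% and 5.43% of all. Between the treated arrays 6 were lower with the combination, against 3.58% of all measured genes. The chaperone gene HSPA6 had intensities of 137, 3581 and 192, the stress transcription factor gene DDIT3 189, 743 and 247, and HMOX1, which breaks down heme, 435, 2737 and 1030. The small heat shock protein gene CRYAB, at 117 (not detected), 673 and 185, was at least 11.6-fold higher after dexamethasone and 11.3-fold lower with the combination than with dexamethasone. DDIT3 was 5.66-fold higher after dexamethasone and 6.60-fold lower with the combination than with dexamethasone. HSPA6 has a near-identical copy, HSPA7, so its signal is uncertain, and its dimmer probe differed by 1.41 after dexamethasone. The medians of this list were 0.17, -0.26 and -0.71 in the order of the comparisons. These values stand beside those of ATF3, FOSB, JUN and EGR1, which were also highest on the dexamethasone array, and their part in the result was not tested.

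**Figure D3:**
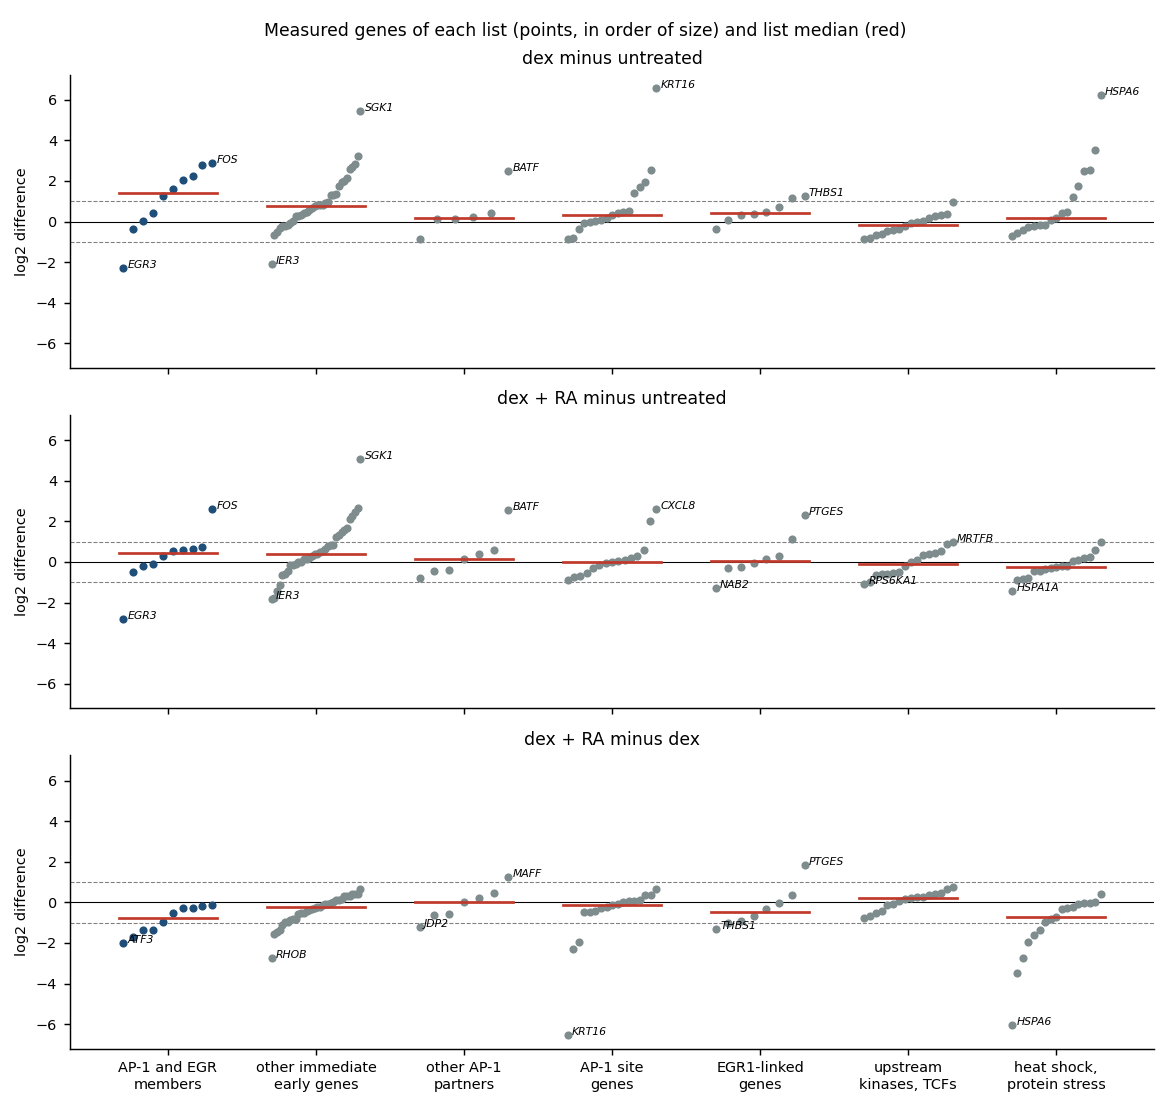
Log2 differences (vertical axis) of the measured genes of each list in the 3 comparisons, each point a gene in order of size, red bars the list medians and dashed lines 2-fold; the most extreme gene at each end is named where it passed 2-fold. The AP-1 and EGR genes had a median of 1.41 after dexamethasone and -0.75 between the treated arrays, and the heat shock and protein stress list ran from -0.70 to 6.22 after dexamethasone.

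For EGR1 and EGR3, which were detected on all 3 arrays, the genes with the most similar pattern were found by the Euclidean distance between the pair of log2 differences from the untreated array, without bounds, over 11108 genes on the 3 arrays. For EGR1 they were GADD45A (distance 0.0698), the neuropeptide gene GAL (0.0848) and the membrane protein gene GPM6B (0.119). EGR3 was nearest to ACACB, an acetyl-CoA carboxylase gene (0.0940), AGR2, a protein disulfide isomerase gene of secretory epithelium (0.227), and the kisspeptin receptor gene KISS1R (0.232). No distances are given for FOS and ATF3, whose untreated values were not detected, so that their differences without bounds rest on background. A small distance describes these 3 arrays and carries no test.

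**Figure D4:**
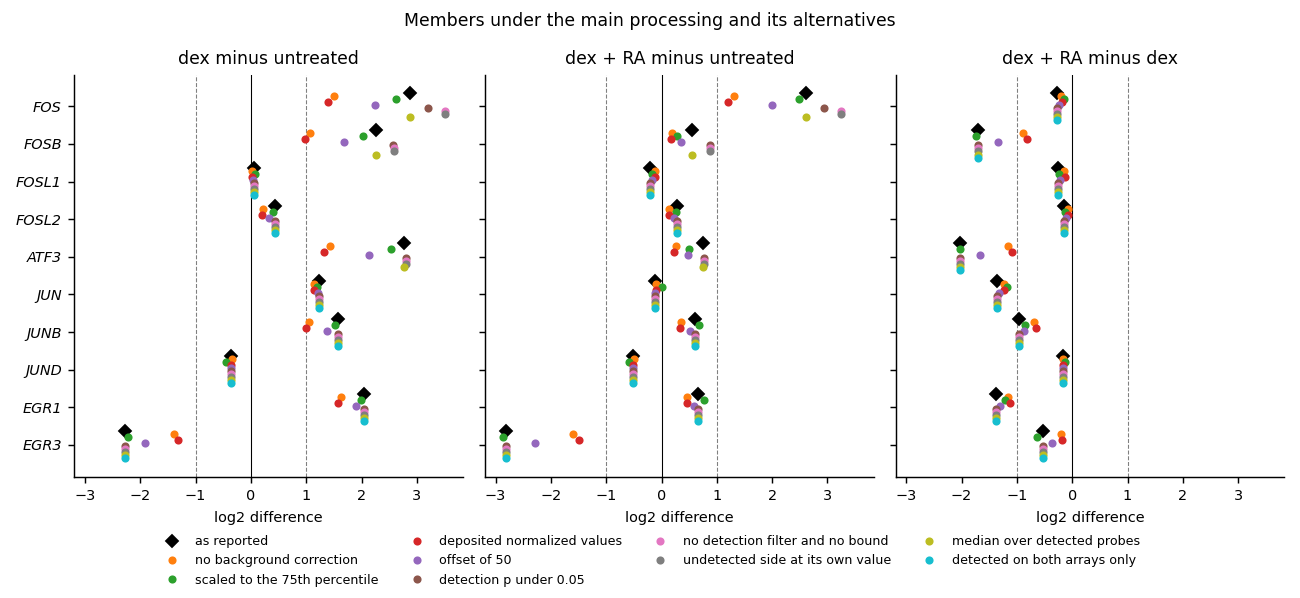
Log2 difference (horizontal axis) of each gene as reported (black diamonds) and under the alternatives tried (coloured points), with dashed lines at 2-fold. After dexamethasone JUN moved little (1.13 to 1.24). By contrast FOS, FOSB, ATF3, JUNB, EGR1 and EGR3 lay closer to 0 without background correction and with the deposited values. The deposited values put FOS at 1.40 and ATF3 at 1.32, both as bounds, EGR1 at 1.58 and EGR3 at -1.32.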

How the data were processed

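Per the labels, total RNA of 3 HCC1937 samples was amplified to biotin-labelled cRNA for Illumina bead arrays, 1 array a group. The deposited bead table gives, per the file headers, the mean intensity of each probe, its standard error, the number of beads and a detection p-value. The deposited normalized table holds the authors' values of the same arrays on a linear intensity scale, whose normalization is not given in the sources used here. Background was corrected here by normexp with the detection p-values (limma 3.58.1, R 4.3.3, offset 16), followed by quantile normalization and log2. Differences were taken with Python 3.11.15, numpy 2.4.6 and pandas 2.3.3, and checked on simulated data.

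Of 47315 probes, 30109 had 1 symbol in the platform annotation, 8 had several and 17198 were unnamed here. The brightest probe stood for a gene. A gene counted as measured if either array of a comparison detected it (p under 0.01). Where the other did not, the lowest value detected on that array took its place. With 1 array per group, 2-fold was the size rule and nothing was tested. All members were named, and from each other list up to 4 genes per comparison past 2-fold with the largest differences and any AP-1 partner or EGR list gene. For the likeness of patterns, the nearest genes of EGR1 and EGR3 were named, and those of FOS and ATF3 were left out because their untreated values were undetected. SRF, and the last gene of each count of 5, were named after their values were seen. SRF, NAB2 and HMOX1 are each on more than 1 list. The members and lists were chosen with earlier results of these data known. The alternatives tried were no background correction, scaling to the 75th percentile, the deposited values, an offset of 50, a detection threshold of 0.05, no detection filter, no bound, use of genes that both arrays detected, and each gene's median over detected probes.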

Additional observations from a re-analysis of the deposited data

How the results depend on the processing

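Of 264 single-gene values under the 9 alternatives, 259 kept their direction and their side of 2-fold, 4 lost 2-fold and 0 passed it anew. The remaining 1 changed sign within 2-fold, JUN with the combination against untreated (-0.12, and 0.01 when scaled to the 75th percentile). For a member detected on both arrays, the alternatives of detection, bound and probe median return the reported value by construction. The count of 259 therefore overstates how far the processing was varied. The 4 that lost 2-fold included FOSB (0.97, a bound) and JUNB (0.99) after dexamethasone with the deposited values. Without the bound the deposited FOSB values differed by 1.06, past 2-fold. The others were FOSB between the treated arrays with the deposited values (-0.81) and without background correction (-0.88). Among genes detected on both arrays, which leaves 7 members in each comparison with the untreated array, 3 were at least 2-fold higher after dexamethasone and 0 with the combination, since FOS, FOSB and ATF3 drop out. The median over the members ran from 0.43 to 1.41 after dexamethasone, from -0.12 to 0.45 with the combination and from -0.75 to -0.43 between the treated arrays. Over all genes, the share past 2-fold fell without background correction to 2.82% higher and 1.63% lower after dexamethasone, 2.53% and 2.25% with the combination, and 1.01% and 1.43% between the treated arrays. With the deposited values it was 2.66% and 1.52%, 2.40% and 2.06%, and 0.978% and 1.35%. The cause of these shifts was not tested. No paired analysis was possible because each group held 1 array, and for the same reason no array could be left out. Signal over background limits FOS, FOSB and ATF3, undetected when untreated.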
